A study of Mus musculus with 9 samples.

Results

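The mouse genes for chitinase-like proteins and chitinases were examined in bulk RNA sequencing of labial mucosa, the lining of the inner lip. Chil1, Chil3, Chil4, Chia1 and Chit1 were taken by symbol, 5 of the 55342 gene names in the deposited files, and the sum of Chil3 and Chil4 was followed beside them. The genes were selected on their strain values in these same libraries, so the strain differences of these 5 genes are given as descriptions, with no p-value.

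All 5 genes encode proteins of glycoside hydrolase family 18, which cut or bind chitin, the polymer of fungal cell walls, insect cuticle and helminth eggs. Chia1 (acidic mammalian chitinase) and Chit1 (chitotriosidase) are active enzymes, whereas Chil1 (BRP-39, the mouse counterpart of human CHI3L1 or YKL-40), Chil3 (Ym1) and Chil4 (Ym2) bind sugars but have lost the catalytic residues. In mice, Chil3 is best known from neutrophils and from alveolar and alternatively activated macrophages, and Chil4 from airway epithelium in allergic inflammation. Interleukins 4 and 13 (IL-4 and IL-13), acting through the transcription factor STAT6, are known inducers of both.

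The study compared mice of the strains Tac111, Tac146 and B6, with 3 libraries each, to find differences between strains. Labels speak of mice with different mutations and of infection before biopsy, but which alleles, ages, agent, dose and time were used is not given in the sources used here. By their labels, cells are T cells in the Tac111 and Tac146 libraries and type 1 innate lymphoid cells (ILC1) in the B6 libraries, so strain and labelled cell type cannot be told apart in either comparison with B6. Nothing in the labels ties the libraries to separate animals, and p-values therefore measure a spread between samples that may be technical.

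Total expected counts ran from 27192359 to 46456500 per library. Transcripts of whole mucosa made up far more of each library than those of the labelled cells: keratinocyte markers took 7.98 to 11.2% of the counts and the skeletal muscle markers 1.64 to 3.13%, against 0.0017 to 0.0031% for the T cell markers and 0.00076 to 0.0035% for markers of ILC1 and natural killer (NK) cells. Of 14 T cell markers, 5 were at 0 in all Tac111 libraries, among them Cd3d, Cd3e and Cd3g, which define T cells. Others were not. Trbc2 had 173 to 264 counts in Tac111 and 159 to 320 in B6, and Cd5 had 233 to 317 and 223 to 323. Tac146, also labelled T cells, had 0 to 2, 6 to 8 and 13 to 32 counts of Cd3d, Cd3e and Cd3g. B6 had 19 to 41, 28 to 71 and 58 to 100. Of 12 T cell markers tested, edgeR called 6 lower in Tac111 than in B6 and 5 lower in Tac146 than in B6 (adjusted p threshold of 0.05). Shares of all genes tested called lower there were 2.80% and 0.109%. Of 14 ILC1 and NK cell markers, 6 were at 0 in all Tac111 libraries, among them Ncr1. Tbx21 had 15 to 24 counts in Tac111 and 28 to 42 in B6, and Il2rb had 0 to 4 and 80 to 128. Of 9 such markers tested, edgeR called 8 lower in Tac111 than in B6 and 7 lower in Tac111 than in Tac146. Of all genes tested, 2.80% and 6.27% were called lower in these comparisons. None of the 9 was called in Tac146 against B6. Il2rg, the shared receptor chain for IL-2, IL-4, IL-7 and other cytokines, stood at 0.118 ± 0.010 CPM in Tac111, 4.35 ± 0.89 CPM in Tac146 and 5.04 ± 0.20 CPM in B6 (SD, n = 3 each). Rag1 had 59 to 75 counts in Tac146, against 0 to 3 in Tac111 and 0 to 2 in B6, and Rag2 had 47 to 75 counts in Tac111, against 0 in every Tac146 and B6 library. CPM are counts scaled to a common library size with TMM factors. In bulk tissue, fewer cells of a type and less RNA per cell cannot be told apart.

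Chil3 and Chil4 are neighbours on chromosome 3 and the closest pair in the set. In GRCm38, Chil4 (ENSMUSG00000063779.6) lies on the minus strand at chr3:106201490-106219507 and Chil3 (ENSMUSG00000040809.10) on the same strand at chr3:106147554-106167564. Chia1 (ENSMUSG00000062778.12) lies beside them on the plus strand at chr3:106113229-106132120. Chit1 (ENSMUSG00000026450.14) and Chil1 (ENSMUSG00000064246.10) form a second pair on the plus strand of chromosome 1, at chr1:134111242-134151540 and chr1:134182176-134190181. Translated from the annotated transcripts, the Chil3 and Chil4 proteins were identical at 363 of 398 aligned residues (91.2%), and Chil3 matched the Chia1 enzyme at 66.8% of aligned residues and Chil4 at 65.7%. Chil1 was closest to Chit1, at 48.5%. The catalytic motif of the family, in which 3 aspartates precede a glutamate, was found in Chia1 and Chit1, with the glutamate at residue 140 in both, and in none of Chil1, Chil3 and Chil4.

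The promoters of Chil4 and Chil3 are shown because this pair stood lowest in Tac111 relative to the other strains. The 250 bases before the RefSeq start on GRCm38.p6 are given 5′ to 3′ on the minus strand, chr3:106219480-106219729 for Chil4 and chr3:106167565-106167814 for Chil3, with the STAT motif TTCNNNGAA in capitals.
Chil4: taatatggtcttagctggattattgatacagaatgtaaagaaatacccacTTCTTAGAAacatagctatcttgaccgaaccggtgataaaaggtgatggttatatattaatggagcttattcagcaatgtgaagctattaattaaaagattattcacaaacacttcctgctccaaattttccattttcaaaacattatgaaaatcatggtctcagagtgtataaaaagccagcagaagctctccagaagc
Chil3: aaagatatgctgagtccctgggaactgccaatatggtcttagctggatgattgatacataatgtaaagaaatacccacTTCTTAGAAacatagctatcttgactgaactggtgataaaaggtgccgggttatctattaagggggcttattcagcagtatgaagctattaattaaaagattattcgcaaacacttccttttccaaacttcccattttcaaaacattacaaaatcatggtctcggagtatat
Each promoter held 1 match with the same letters, TTCTTAGAA, beginning 200 bases before the start of Chil4 and 172 bases before that of Chil3. A TATAAA stretch began 31 bases before the Chil4 start and 3 bases before the Chil3 start, so the RefSeq starts of the pair are offset by 28 bases relative to their shared sequence. By the gene positions given above, the Chil4 gene reaches 106219507, so the printed Chil4 stretch overlaps its first bases. The Chil3 gene reaches 106167564, outside its printed stretch. The 300-base windows that also take in 50 bases after the start were identical at 251 of 271 aligned bases (92.6%). TTCNNNGAA reads the same on both strands and was present in 2 of the 5 genes' windows, those of Chil4 and Chil3, and in 8.30% of 32851 RefSeq promoter windows of the same length. The spacing usually linked to STAT6, TTCNNNNGAA, was in none of the 5 windows and in 6.95% of all. TATAAA on the coding strand was in 8.32% of all. A match is a description of the letters and not evidence of binding.

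Chil4 spanned the widest range. It had 1.12, 0.759 and 0.145 CPM in Tac111 replicates 1, 2 and 3, 5117, 5249 and 10485 CPM in Tac146 replicates 2, 3 and 4, and 1898, 1206 and 2300 CPM in B6 replicates 1, 2 and 3. The 3 strains did not overlap: every Tac111 library was close to 0, every Tac146 library was above every B6 library, and Tac146 replicate 4 was the highest of all. Behind the Tac111 values stand 35, 21 and 5 counts, 61 in all, or 0.654 CPM with a 95% exact Poisson interval of 0.50 to 0.84 that covers counting error only. The gene took 0.517 to 1.02% of all counts in Tac146 and 0.124 to 0.222% in B6. Chil4 was thus lower in Tac111 than in B6 by a log2 fold change of -11.41 (SE 0.61), and lower than in Tac146 by -13.35 (SE 0.64). In Tac146 it was 3.86-fold higher than in B6 (log2 1.95, SE 0.38).

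Chil3 ranked the strains in the same order at far lower values. It stood at 0.0641, 0.144 and 0.0291 CPM in Tac111, at 11.6, 5.99 and 23.4 CPM in Tac146 and at 1.98, 0.563 and 3.74 CPM in B6. No strain overlapped another, and Tac146 replicate 4 was again the highest library. Tac111 rested on 2, 4 and 1 counts, 7 in all, or 0.0751 CPM with an exact Poisson interval of 0.0302 to 0.155. The log2 fold change was -4.74 (SE 1.03) in Tac111 against B6, -7.44 (SE 0.91) in Tac111 against Tac146, and 2.71 (SE 0.58) in Tac146 against B6. These folds depend on single libraries: the first was -5.42 without Tac111 replicate 2 and -4.08 without B6 replicate 3, and the last was 2.07 without Tac146 replicate 4 and 3.37 without B6 replicate 3.

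Counts of Chil3 and Chil4 can draw on the same reads. Their longest annotated transcripts both have 1539 bases and differ at 117 of them (92.4% identical), with a longest identical run of 136 bases. Of 1465 windows of 75 bases in Chil3, 125 (8.53%) occurred unchanged in Chil4, in 4 stretches, and none of the other pairs examined among the 5 genes shared a window. In the deposited table, Chil3 and Chil4 were not whole numbers in all B6 libraries, such as 82.86 and 79532.14 counts in B6 replicate 1, yet their sum was whole or within 0.06 of a whole number in every library. Chil3 made up 0.114 to 0.226% of the joint count in Tac146 and 0.0466 to 0.162% in B6, against 5.41 to 16.7% of the 6 to 37 joint counts in Tac111. How much of the Chil3 value in Tac146 and B6 came from Chil4 reads was not tested. The sum does not depend on the split, and it gave 1.19, 0.903 and 0.174 CPM in Tac111, 5129, 5255 and 10508 CPM in Tac146, and 1900, 1207 and 2304 CPM in B6. Its log2 fold changes were -11.25 (SE 0.60) in Tac111 against B6, -13.20 (SE 0.64) in Tac111 against Tac146 and 1.95 (SE 0.38) in Tac146 against B6.

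**Figure D1:**
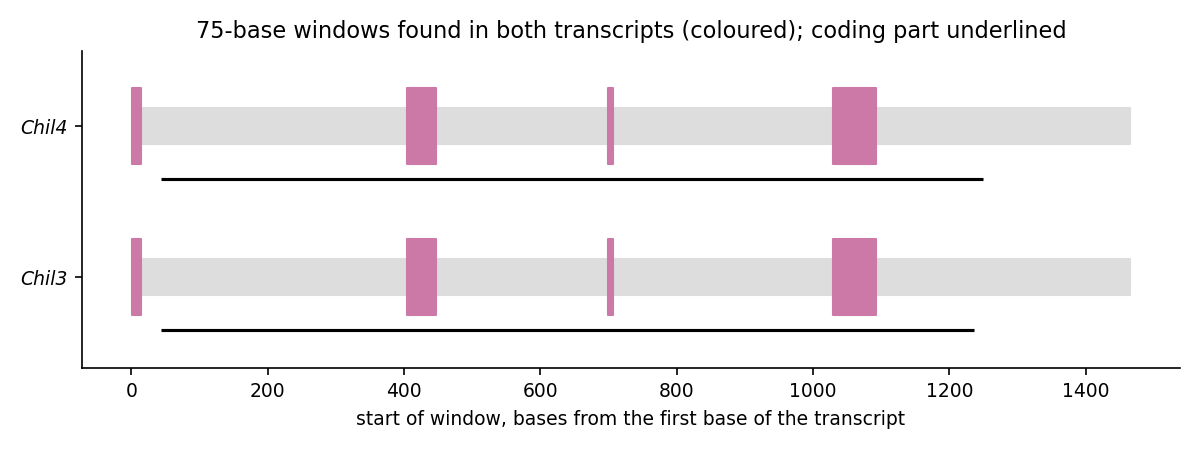
Positions of 75-base windows found in both the Chil4 (top) and Chil3 (bottom) transcripts, with the start of each window in bases from the first base of the transcript on the x axis. Coloured blocks mark the shared windows, 125 of 1465 in 4 stretches at the same places in both genes, and the black line under each bar marks the coding part.

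Chil1, whose product is secreted by macrophages, neutrophils and epithelial cells and binds the receptor encoded by Il13ra2, was highest in Tac146. It had 1.83, 4.12 and 2.53 CPM in Tac111, 71.2, 106.6 and 125.3 CPM in Tac146, and 14.6, 4.38 and 9.41 CPM in B6. All Tac146 libraries were far above the others, while the highest Tac111 library lay just below the lowest B6 library. Chil1 was 10.5-fold higher in Tac146 than in B6 (log2 3.40, SE 0.39), a larger ratio than that of Chil4. In Tac111 it was 3.42-fold lower than in B6 (log2 -1.77, SE 0.43) and 36.1-fold lower than in Tac146 (log2 -5.17, SE 0.44).

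Chit1, the chitotriosidase gene, had overlapping values in the 3 strains. It stood at 205.5, 221.3 and 261.1 CPM in Tac111, 254.1, 249.2 and 238.3 CPM in Tac146, and 245.1, 199.3 and 206.1 CPM in B6. Each strain overlapped both others, and the highest and lowest of the 9 libraries were Tac111 replicate 3 and B6 replicate 2. The log2 fold change was 0.08 (SE 0.11) in Tac111 against B6, 0.19 (SE 0.11) in Tac146 against B6 and -0.11 (SE 0.11) in Tac111 against Tac146.

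Chia1, the other active enzyme, was close to the limit of detection. It had 2, 4 and 3 counts in Tac111, 11, 2 and 3 in Tac146, and 5, 1 and 1 in B6, and was the 1 gene of the 5 that did not pass the filter on low counts. Summed over libraries this gave 0.0965 CPM in Tac111 (exact Poisson interval 0.0441 to 0.183), 0.130 CPM in Tac146 (0.0743 to 0.211) and 0.0694 CPM in B6 (0.0279 to 0.143). The intervals cover counting error only, 11 of the 16 Tac146 counts came from replicate 2, and no strain difference is read from these values.

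**Figure D2:**
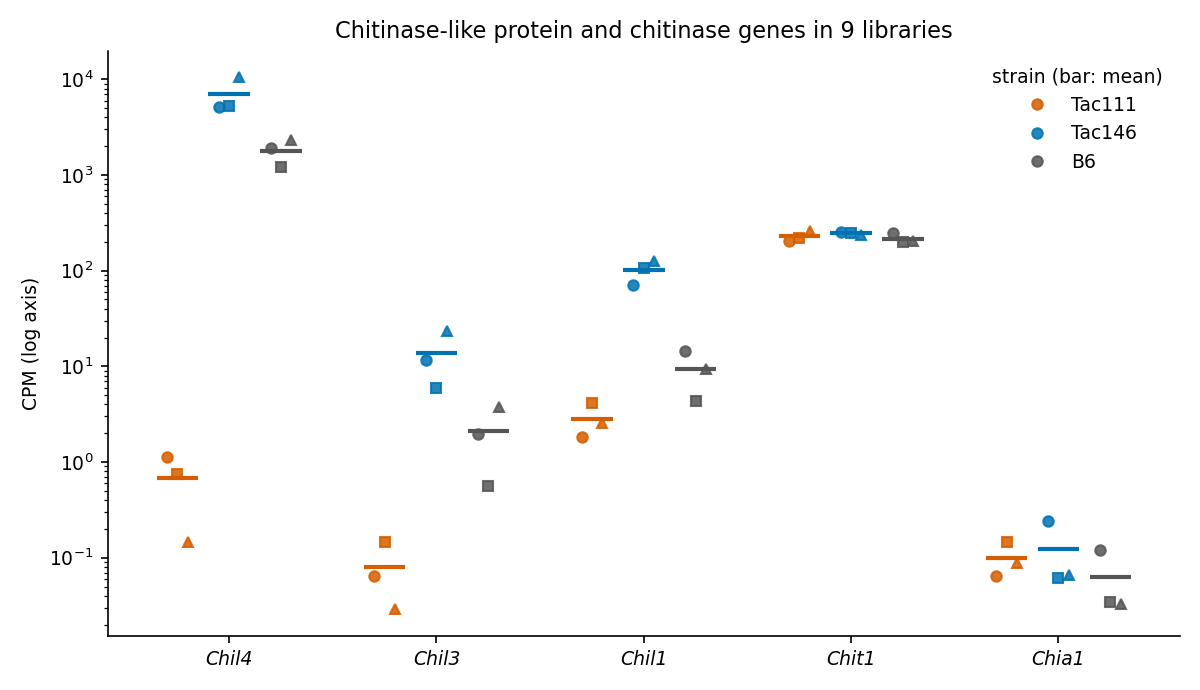
CPM of the 5 genes in each library on a log axis, by strain from left to right (Tac111, Tac146, B6), with a bar at the mean of 3 libraries. Chil4, Chil3 and Chil1 order the strains as Tac146, B6 and Tac111 from high to low, whereas the Chit1 points lie between 199.3 and 261.1 CPM and the Chia1 points below 0.25 CPM.

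The genes were selected on these contrasts, so the calls that follow are no test of them and nothing is read from their number. Of the 4 genes that passed the filter, Chil4, Chil3 and Chil1 passed the threshold as lower in Tac111 than in B6 (edgeR quasi-likelihood test, adjusted p threshold of 0.05 over 16523 genes), where 2.80% of all genes tested were called lower and 1.02% higher, and none of the 4 was called higher. In Tac111 against Tac146 the same 3 genes were called lower and none higher, where 6.27% of all genes were called lower and 2.62% higher. In Tac146 against B6, Chil1 was called higher and none lower, where 0.194% of all genes were called higher and 0.109% lower. Chil4 and Chil3 were not called in that comparison. The comparisons share libraries and are not independent.

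**Figure D3:**
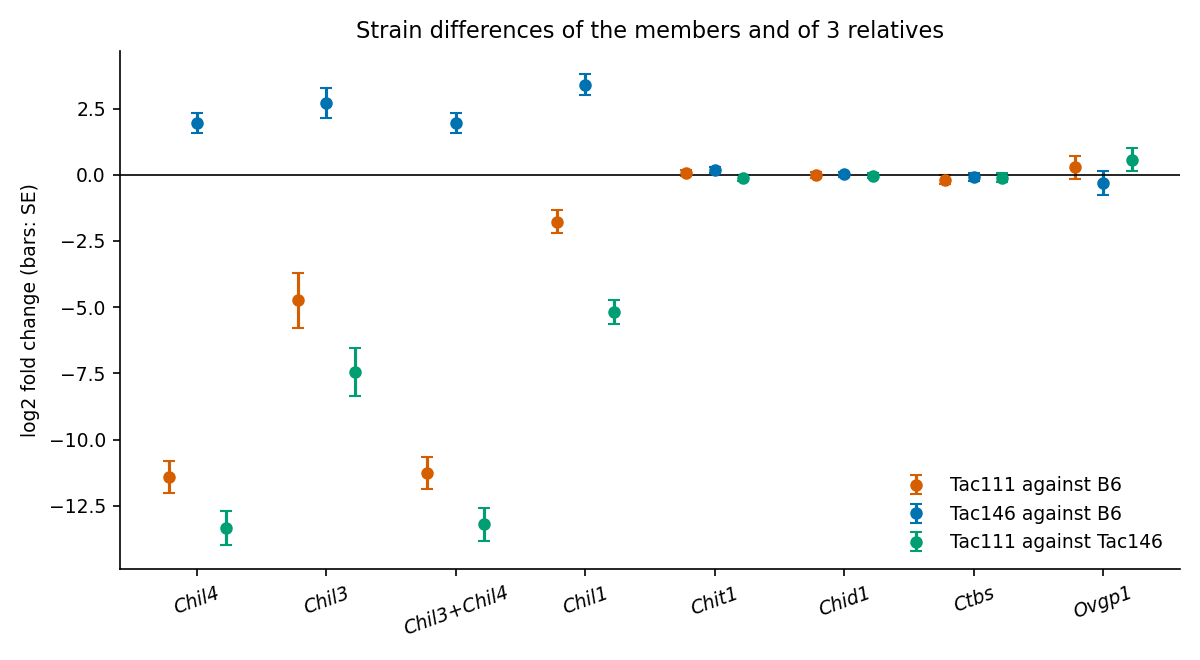
Log2 fold changes with SE of the 4 tested genes, of the sum of Chil3 and Chil4, and of Chid1, Ctbs and Ovgp1, for Tac111 against B6, Tac146 against B6 and Tac111 against Tac146. The values of Chil4, Chil3 and Chil1 in Tac111 lie below 0 and those in Tac146 above it, while Chit1, Chid1 and Ctbs lie near 0.

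Levels of different genes can be compared only per length, here CPM per kb of annotated exon. In Tac111, Chit1 led at 126 ± 15.8 CPM per kb (SD, n = 3), followed by Chil1 at 1.01 ± 0.42. Chil4 at 0.240 ± 0.175, Chia1 at 0.0518 ± 0.0217 and Chil3 at 0.0485 ± 0.0363 CPM per kb came last in Tac111, and the ranges of these 3 overlapped. In Tac146 the order was Chil4 at 2467 ± 1087, Chit1 at 136 ± 4.46, Chil1 at 36.0 ± 9.79, Chil3 at 8.37 ± 5.43 and Chia1 at 0.0650 ± 0.0545 CPM per kb, with no overlap between neighbours in that order. In B6 it was Chil4 at 640 ± 196, Chit1 at 119 ± 13.6, Chil1 at 3.38 ± 1.82, Chil3 at 1.28 ± 0.976 and Chia1 at 0.0328 ± 0.0259 CPM per kb, and of these neighbours Chil1 and Chil3 overlapped. Per base of exon, the catalytically inactive Chil4 thus exceeded the active Chit1 in every Tac146 and B6 library and stood far below it in every Tac111 library. With the length of the longest transcript in place of all exons, Chil4 stood at 0.439, 4516 and 1171 CPM per kb in Tac111, Tac146 and B6.

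No other family 18 gene that could be tested was called in any comparison. Chid1, which encodes a lysosomal and secreted chitinase-domain protein, averaged 17.5 ± 1.70 CPM in Tac111, 17.9 ± 0.98 CPM in Tac146 and 17.7 ± 1.95 CPM in B6. Ctbs, the lysosomal di-N-acetylchitobiase gene, averaged 5.50 ± 0.79 CPM in Tac111, 5.93 ± 0.62 CPM in Tac146 and 6.29 ± 1.07 CPM in B6. Ovgp1, the oviduct glycoprotein gene, averaged 0.723 ± 0.220 CPM in Tac111, 0.471 ± 0.033 CPM in Tac146 and 0.596 ± 0.396 CPM in B6. None of these 3 was called in any comparison by edgeR or DESeq2, none had an unadjusted p under 0.05, and the edgeR adjusted p ran from 0.391 to 0.987. Chil5 and Chil6, which lie on chromosome 3 with Chil3 and Chil4, had 0 to 3 and 0 to 1 counts per library and did not pass the filter.

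Few of the genes around the set were called, and few would be at the shares over all genes tested. In Tac111 against Tac146 these shares were 6.27% lower and 2.62% higher. They were 2.80% lower and 1.02% higher in Tac111 against B6, and 0.109% and 0.194% in Tac146 against B6. Nothing is read from the number of calls. Within 250 kb of Chia1, Chil3 and Chil4, 18 other genes are annotated and 7 passed the filter. Pifo, a gene of the primary cilium, was called among these 7, lower in Tac111 than in Tac146 (log2 -4.42, SE 0.67, edgeR adjusted p = 0.00414), with 2, 0 and 0 counts in Tac111, 24, 19 and 22 in Tac146, and 6, 2 and 4 in B6. The Tac111 side of this ratio rests on 2 counts in all. Within 250 kb of Chit1 and Chil1, 19 other genes are annotated and 10 passed, of which Cyb5r1, a cytochrome b5 reductase gene, was called higher in Tac111 than in Tac146 (log2 0.51, SE 0.13, edgeR adjusted p = 0.0381). In the comparisons with B6, edgeR and DESeq2 called none of the genes around either group. Around chromosome 3, 2 genes had an unadjusted edgeR p under 0.05 in Tac111 against B6 and 1 in Tac146 against B6, and around chromosome 1 there were 3 and 1.

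**Figure D4:**
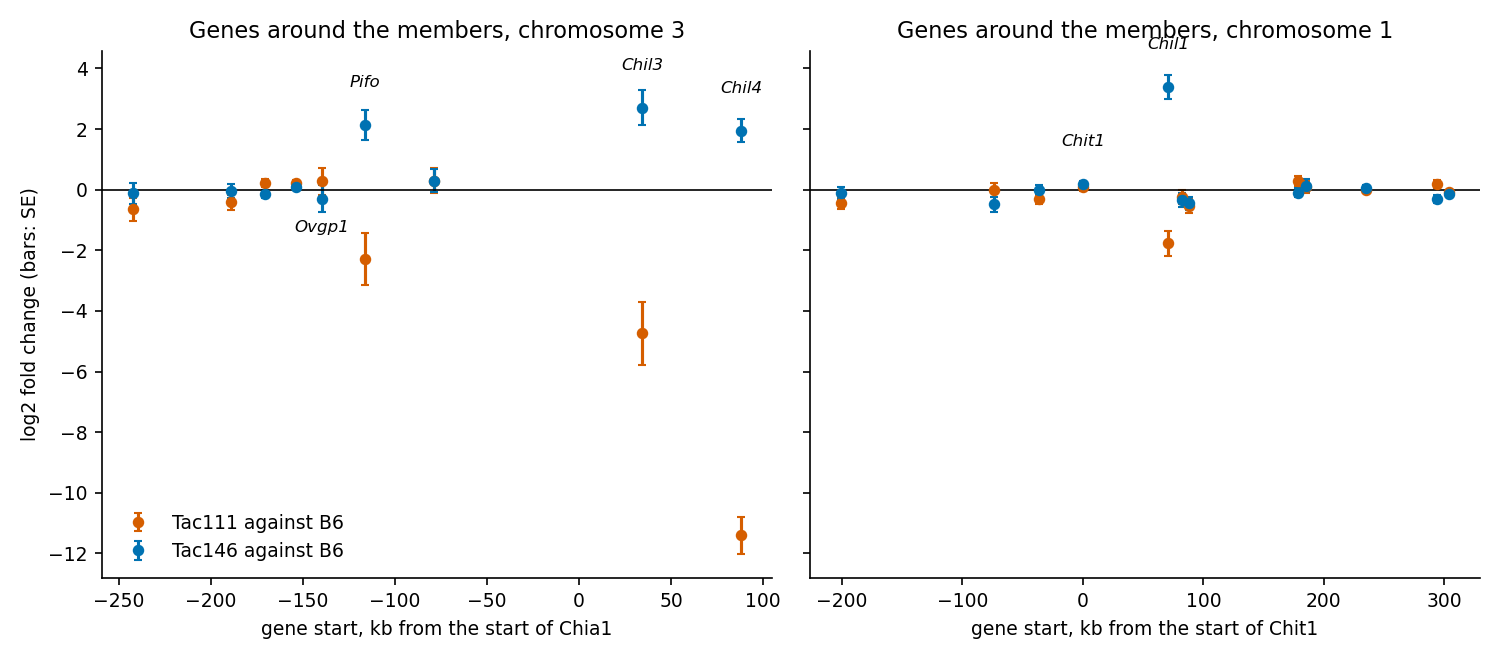
Log2 fold changes with SE of tested genes against the distance of their start, in kb, from the start of Chia1 on chromosome 3 (left) and of Chit1 on chromosome 1 (right), for Tac111 against B6 and Tac146 against B6. Chil4, Chil3, Chil1 and Pifo, which is at -2.28 in Tac111 and 2.13 in Tac146, stand away from 0, and the other genes lie between -0.64 and 0.30.

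Genes of the pathways in which these proteins take part were read from lists chosen with earlier results known. Of 5 tested genes for CHI3L1 receptors and partners (Il13ra2, Tmem219, Cd44, Lgals3 and Sdc1), edgeR called none in any comparison, with 1, 1 and 2 at an unadjusted p under 0.05 in Tac111 against B6, Tac146 against B6 and Tac111 against Tac146, and DESeq2 called 0, 0 and 1. Il13ra2 averaged 1.29 ± 0.23 CPM in Tac111, 2.01 ± 0.43 CPM in Tac146 and 1.24 ± 0.41 CPM in B6. Of 5 tested genes for chitin recognition, Nod2, a sensor of bacterial wall fragments with a reported role in responses to chitin, averaged 2.82 ± 0.34 CPM in Tac111, 5.51 ± 0.33 CPM in Tac146 and 4.41 ± 0.12 CPM in B6. It was the 1 gene called, lower in Tac111 than in B6 (log2 -0.64, SE 0.14, edgeR adjusted p = 0.0279) and than in Tac146 (log2 -0.97, SE 0.14, edgeR adjusted p = 0.00265). Of all genes tested, 2.80% and 6.27% were called lower in these comparisons.

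Of 12 tested type 2 cytokine and receptor genes, 1 was called, Il13ra1, a chain of the receptor for IL-4 and IL-13. It averaged 72.4 ± 5.74 CPM in Tac111, against 98.3 ± 9.17 CPM in Tac146 (log2 -0.44, SE 0.10, edgeR adjusted p = 0.0282). In that comparison 5 of the 12 had an unadjusted p under 0.05 and DESeq2 called 2, and 1 of 12 is near the 6.27% of all genes called lower. Il4ra averaged 23.4 ± 2.55 CPM in Tac111, 33.0 ± 8.01 CPM in Tac146 and 24.1 ± 2.04 CPM in B6, and Stat6 averaged 103 ± 2.40 CPM in Tac111, 120 ± 6.94 CPM in Tac146 and 115 ± 14.6 CPM in B6, and edgeR called neither. In both comparisons with B6 edgeR and DESeq2 called none of the 12, with 1 at an unadjusted p under 0.05 in Tac111 against B6 and 2 in Tac146 against B6. Il13 and Il4 themselves were near the limit of detection. Il13 had 0 counts in every Tac111 library, where 3 counts over the group would make 0.0322 CPM. It had 5, 11 and 20 counts in Tac146 and 3, 3 and 1 in B6, and Il4 had at most 4 counts in any library. Both failed the filter and were not tested. Il5 passed the filter on 3 to 19 counts per library and was not called in any comparison. Its mean was highest in Tac111, at 0.413 ± 0.133 CPM, against 0.260 ± 0.081 CPM in Tac146 and 0.255 ± 0.147 CPM in B6. The epithelial cytokine gene Il33, in contrast, averaged 59.2 ± 4.99 CPM in Tac111, 75.8 ± 9.46 CPM in Tac146 and 72.9 ± 14.8 CPM in B6 and was not called.

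Among 19 tested genes known to be induced by IL-4 or IL-13, other than the chitinase-like genes, 5 were lower in Tac111 than in B6 and 8 were lower in Tac111 than in Tac146 (edgeR), and none was higher, where 2.80% and 6.27% of all genes tested were called lower in these comparisons. Their median log2 fold change was -0.48 in both comparisons, against 0.02 over all genes tested. Alox15, a lipoxygenase gene of alternatively activated macrophages and epithelium, showed the largest difference among those called, with 3.17, 4.48 and 4.42 CPM in Tac111, 334.9, 358.1 and 533.7 CPM in Tac146, and 121.1, 190.7 and 311.1 CPM in B6. It was lower in Tac111 than in B6 (log2 -5.69, SE 0.37, edgeR adjusted p = 2.89e-05) and than in Tac146 (log2 -6.67, SE 0.39, edgeR adjusted p = 8.49e-06). The chemokine gene Ccl22 averaged 1.25 ± 0.08 CPM in Tac111, 5.19 ± 0.67 CPM in Tac146 and 5.83 ± 1.04 CPM in B6 (edgeR adjusted p = 0.00015 in Tac111 against B6). Ccl17, the other ligand of CCR4 in the list, was also lower in Tac111 than in B6 (log2 -3.33, SE 0.45, edgeR adjusted p = 0.00261) on 3 to 7 counts per Tac111 library. Fcgbp, a mucus protein gene, was lower in Tac111 than in B6 (log2 -0.93, SE 0.18, edgeR adjusted p = 0.0164) and than in Tac146 (log2 -1.58, SE 0.18, edgeR adjusted p = 0.000755). Genes of the list not called in Tac111 against B6 ran from log2 -1.96 for Clca1 to 0.85 for Agr2, with Arg1 at 0.12 (SE 0.23). In Tac146 against B6 none of the 19 was called, with 4 at an unadjusted p under 0.05 in edgeR and 0 called by DESeq2, and the median was 0.11.

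Marker levels of other cells the biopsies could hold are set beside these values. As a reference for the calls, 2.80% of all genes tested were called lower and 1.02% higher in Tac111 against B6. The shares were 6.27% and 2.62% in Tac111 against Tac146, and 0.109% and 0.194% in Tac146 against B6. Neutrophil markers (12 listed, with Ly6g at 0 in all libraries and Elane at 0 in Tac111 and Tac146) summed to 19.6 to 27.0 CPM in Tac111, 46.7 to 179.6 CPM in Tac146 and 14.6 to 31.7 CPM in B6. In Tac146 S100a9 supplied much of this, with 20.1, 34.8 and 94.4 CPM. Tac146 replicate 4 was the highest library for S100a9, Chil3 and Chil4 alike. Ltf had the most counts of these markers in Tac111. Its counts were 420, 313 and 658 in Tac111, 530, 583 and 858 in Tac146, and 321, 239 and 294 in B6. Mpo, Camp and Ngp had at most 8 counts in any library. Of the 6 neutrophil markers tested, S100a8, S100a9 and Cxcr2 were lower in Tac111 than in Tac146 (edgeR adjusted p = 0.0236, 0.00701 and 0.032), and edgeR called none in either comparison with B6, with 2 at an unadjusted p under 0.05 in Tac111 against B6 and 3 in Tac146 against B6 (DESeq2 called 1 and 2). Macrophage markers (10 listed, none at 0) summed to 209 to 258 CPM in Tac111, 177 to 370 CPM in Tac146 and 289 to 347 CPM in B6, with 2 of 10, Csf1r and Adgre1, lower in Tac111 than in Tac146 (edgeR adjusted p = 0.0424 and 0.0498). Against B6, edgeR called none of the 10 in either strain. In Tac111 against B6 their median log2 fold change was -0.52, with 2 at an unadjusted edgeR p under 0.05 and 2 called by DESeq2. The median was -0.22 in Tac111 against Tac146. Markers of group 2 innate lymphoid cells (10 listed, with Klrg1 and Il13 at 0 in Tac111) summed to 161 to 179 CPM in Tac111, 231 to 234 CPM in Tac146 and 220 to 235 CPM in B6, of which Rora alone supplied a mean of 130 CPM in Tac111, 189 CPM in Tac146 and 190 CPM in B6. Il7r, Rora and Icos, 3 of 8 tested, were lower in Tac111 than in either other strain (edgeR), and the other 5 were not called, with log2 fold changes of -0.44 for Il17rb to 0.69 for Il5 in Tac111 against B6. Eosinophil markers (6 listed, Epx and Prg3 at 0 in every library) never exceeded 0.885 CPM in sum. Gland markers (14 listed) summed to 29.6 to 43.0 CPM in Tac111, 19.1 to 21.8 CPM in Tac146 and 18.9 to 20.9 CPM in B6. Most of this came from Amy1 and Aqp5 in Tac111 and B6, and from Amy1 and Lpo in Tac146. Dcpp1, Dcpp2, Dcpp3 and Smr2 were at 0 in every library. Of the 5 gland markers tested, Aqp5, a water channel gene, was higher in Tac111 than in B6 (log2 1.96, edgeR adjusted p = 0.00697) and than in Tac146 (log2 3.73, edgeR adjusted p = 0.000216). Lpo, the lactoperoxidase gene, went the other way and had the strain order of Chil4, at 0.176 ± 0.100 CPM in Tac111, 6.77 ± 1.70 CPM in Tac146 and 0.565 ± 0.374 CPM in B6. It was lower in Tac111 than in Tac146 (log2 -5.20, edgeR adjusted p = 0.000207) and higher in Tac146 than in B6 (log2 3.51, edgeR adjusted p = 0.00467). Bhlha15, a transcription factor gene of secretory cells, was also lower in Tac111 than in Tac146 (log2 -2.32, edgeR adjusted p = 0.0245). Of the 12 keratinocyte markers edgeR called none in any comparison, and 1 had an unadjusted p under 0.05 and was called by DESeq2, in Tac111 against Tac146. The part of these cells in the levels of Chil4, Chil3 and Chil1 was not tested.

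The genes whose pattern over the 9 libraries was most like that of Chil4 were ranked by the root mean square difference of log2 CPM, each gene centred on its own mean. They were Sprr2a3 (1.54), Sprr2a2 (1.62), Sprr2a1 (2.75), Gzmc (2.83), Alox15 (3.14), Sprr2b (3.40), Il2rb (3.57), Ctsw (3.73), Mrgprg (3.76) and Sprr2f (3.78), where the median over all genes tested was 6.01. Sprr2 genes encode small proline-rich proteins that are cross-linked into the outer layer of squamous epithelium, and Gzmc, Il2rb and Ctsw are genes of cytotoxic lymphocytes. Sprr2a2 had 5.35, 6.41 and 5.10 CPM in Tac111, 6009, 5910 and 11406 CPM in Tac146 and 2097, 1274 and 2007 CPM in B6. As with Chil4, Tac146 replicate 4 was highest for Sprr2a2 and Tac111 stood far below both other strains. Near-identical Sprr2 copies may share reads, so values of single copies are uncertain. For Chil3 the nearest genes were Sprr2f (0.781), Bpifa5 (0.898), Sprr2b (0.920), Sprr2g (1.02) and Sprr2i (1.09), where the median was 2.82. Sprr2f had 0.192, 0.361 and 0.0291 CPM in Tac111, 17.7, 21.2 and 32.6 CPM in Tac146, and 2.53, 0.557 and 1.69 CPM in B6. The ranking is a description over 9 libraries that share strain and depth. A gene that did not vary would score close to these medians, so they are a weak reference. The ranking favours genes that are low in Tac111, as Chil4 and Chil3 are, so that shared trait follows from the selection.

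**Figure D5:**
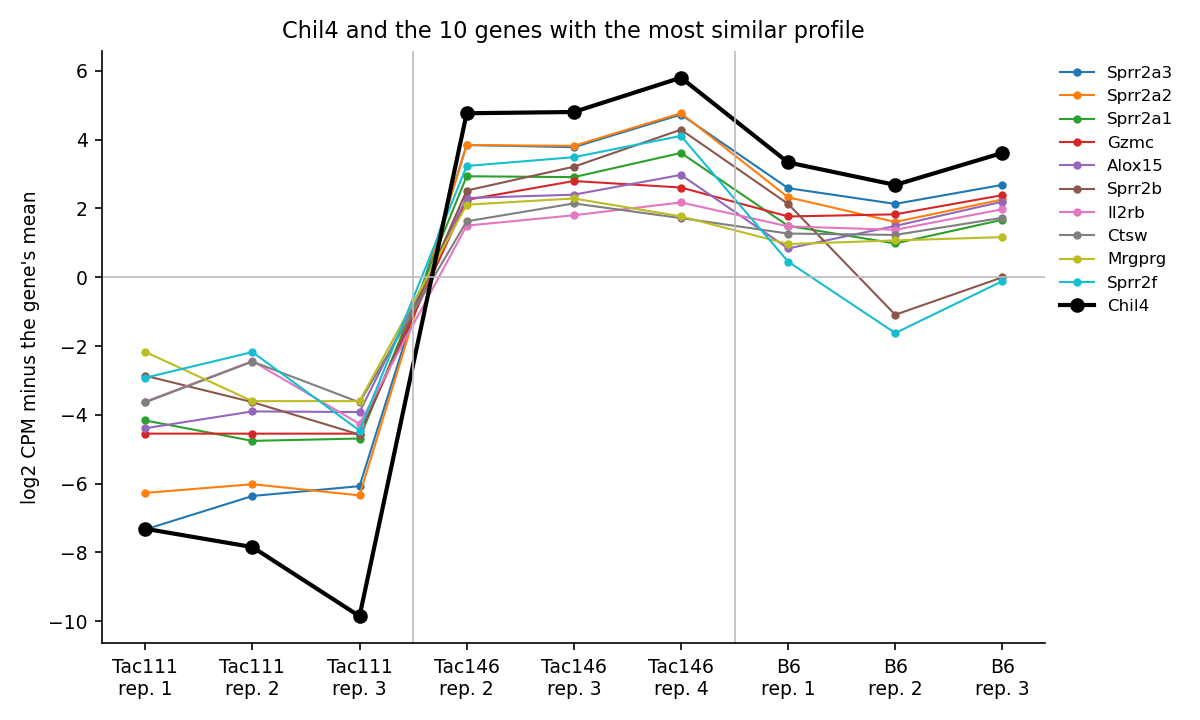
Log2 CPM of Chil4 (black) and of the 10 genes nearest to it, each minus its own mean, in the 9 libraries ordered Tac111, Tac146 and B6. All 11 lines are lowest in Tac111, which follows from the ranking, and Chil4 spans the widest range.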

How the data were processed

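Bulk polyadenylated RNA of labial mucosa was measured in 9 libraries, with a stranded kit per the labels' protocols. The authors deposited expected counts by gene symbol, which are estimated counts and not all whole, per the file headers. STAR, RSEM and GRCm38 were used, per the submitters' processing notes, and what version, annotation, read length and strand setting applied is not given in the sources used here. Each file held 55450 lines; 107 symbols on several lines were summed, which left 55342 names, and 27 date-like names were kept apart. Total expected counts ran from 27192359 to 46456500, so 1 count is a small fraction of 1 CPM and low genes are limited by counting error.

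Expected counts were rounded and tested with edgeR 4.0.16 in R 4.3.3 (quasi-likelihood test, TMM factors, its own filter on low counts), in 1 model of all 9 libraries with strain as the term, which leaves 6 residual degrees of freedom. Benjamini-Hochberg adjustment covered the 16523 genes tested, and the threshold was 0.05. Each SE is approximate, from the log2 fold change over the root of its F statistic. Exact Poisson intervals are at 95% and cover counting error only. The members, the lists and the tests were chosen with earlier results of these data known. The rule for named genes took the 5 members, family 18 relatives, up to 4 called genes per list and comparison with the smallest adjusted p, called genes within 250 kb, and the 10 and 5 genes most like Chil4 and Chil3 (prior count 2), with Il2rg, Rag1 and Rag2 as a check of the strains. Il13, Il4, Il5, Il4ra, Il33, Stat6, Il13ra2, Clca1, Agr2 and Arg1 were named after their values were seen, as were marker genes. Gene positions and transcripts came from GENCODE on GRCm38 and promoters from RefSeq, matched by symbol. Alternatives were median-ratio factors, DESeq2 1.42.0, no filter, only the 6 libraries compared, a replicate block, each library left out, other window lengths, lengths, prior count and motif spacing. The fits were tested on simulated data. Python 3.11.15, pandas 2.3.3, Biopython 1.88 and matplotlib 3.10.9 were used for tables, sequences and figures.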

Additional observations from a re-analysis of the deposited data

How the results depend on the processing

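All 210 alternative fold changes of the members and of the sum of Chil3 and Chil4 stayed within the replicate spread of the reported ones. Leaving out a single library can hardly move a fold change beyond that spread. For those settings, nothing is read from this count. Without Tac111 replicate 1, Chil4 was at -12.04 in Tac111 against B6 and -13.98 in Tac111 against Tac146 (log2). Chil3 in Tac111 against Tac146 was at -8.12 without Tac111 replicate 2 and -6.81 without Tac146 replicate 4. Chit1 in Tac111 against B6, near 0 throughout, ran from -0.03 to 0.18 with a library left out. Counts of called genes moved more. In Tac111 against B6 they were 630, with 1161 by DESeq2, 1020 with no filter and 295 to 958 with a library left out. In Tac146 against B6 they were 50, with 131 by DESeq2, 129 with no filter, 26 with only the 6 libraries compared and 33 to 64 with a library left out. In Tac111 against Tac146 they were 1469, with 2572 by DESeq2, 641 with only the 6 libraries compared and 470 to 1829 with a library left out. Pathway list calls were 6, 0 and 10 in these comparisons, and with a library left out ran from 3 to 8, 0 to 0 and 7 to 13, the 3 being without Tac111 replicate 1, Tac111 replicate 2 or B6 replicate 2. With no filter, 2 were called in Tac146 against B6. Same-numbered libraries correlated at -0.09 to 0.21. Tac111 replicate 1 did not correlate best with B6 replicate 1, whereas Tac111 replicate 3 correlated best with Tac146 replicate 3 (0.21). Whether the numbers pair libraries cannot be read from these few values. With a replicate block, 874, 44 and 632 genes were called, and Chil3 was at 2.10 in Tac146 against B6. Of 50-base and 100-base windows, 18.5% and 3.75% of Chil3 occurred in Chil4. With a prior count of 0.5, 8 of 10 genes nearest Chil4 and 3 of 5 nearest Chil3 were kept. The cause of these shifts was not tested. Low counts limit Chia1, and Chil3 and Chil4 in Tac111.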
